A study of Mus musculus with 7 samples.

Results

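The genes described here encode the 10 enzymes that make serine and move its carbon unit through the folate cycle, and they were taken by gene symbol from the 55401 genes counted in ribosome-bound RNA of mouse Purkinje cells. They are *Phgdh*, *Psat1* and *Psph* for serine synthesis, *Shmt1*, *Mthfd1*, *Shmt2*, *Mthfd1l*, *Mthfd2*, *Mthfd2l* and *Aldh1l2* for the cytosolic and mitochondrial folate steps. Each symbol matched 1 gene, and all 10 passed the filter on low counts, beside which 17621 genes were tested. The question was whether the ribosome-bound RNA of these enzymes differs in Purkinje cells that carry the *nm3888* mutation of the transcription factor gene *Rreb1*, before the cells degenerate.

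The mutant group held 4 *nm3888*-/- mice and the control group 3 wild type mice, all 3 weeks old, with 1 cerebellum in each library. The mutation is an insertion of an ERV3 retrotransposon in an intron of *Rreb1* that arose spontaneously on the NOD background, and it disrupts 1 transcript of the gene rather than deleting the gene. Every mouse, control or mutant, also carried *Rpl22* fl/+ and the *PCP2*-Cre transgene, so that ribosomes of Cre-expressing cells, mainly Purkinje cells, bear an HA tag by which they are pulled down with their RNA. The strain background of these animals is not given in the labels. RNA bound to untagged ribosomes of other cells can come through such a pull-down, and fewer cells of a type cannot be told apart from less RNA per cell.

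The libraries fall into 2 series by their names. Wild type 1 and 2 and mutants 1 and 2, all female, form the first series. Wild type 3 (female) with mutants 3 and 4 (male) forms the second, so that sex and genotype cannot be told apart within the second series. Both males are mutants, so a fit with sex in place of the series takes its genotype difference from mutants 1 and 2 against wild type 1 to 3. Total counts ranged from 18023017 to 33849895 in the first series and from 44551188 to 107937386 in the second. Counts on processed pseudogenes, which are intronless copies of genes, took 8.19 to 9.51% of each first-series library and 0.118 to 0.166% of each second-series library. *Rreb1* had 20.2, 19.1, 23.7 and 10.8 CPM (counts scaled to the library total with TMM factors) in mutants 1 to 4, against 17.7, 17.4 and 14.4 CPM in wild type 1 to 3. Its log2 fold change was 0.20 (SE 0.23, adjusted p = 0.64 by edgeR). The mutation is described as removing the predominant *Rreb1* transcript of the brain, so a lower total would be looked for in mutants, and the count, which covers all transcripts, was not lower in the libraries labelled *nm3888*-/-. Every direction given here therefore rests on the labels, and mutant means a library labelled *nm3888*-/-. The 21 Purkinje markers summed to 49547 to 63810 CPM in mutants and 53671 to 58496 CPM in wild type, and their log2 fold changes had a median of 0.06.

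Serine is made from a glycolytic intermediate in 3 steps, catalysed by PHGDH, PSAT1 and PSPH. The serine hydroxymethyltransferases SHMT1 (cytosol) and SHMT2 (mitochondria) then split serine into glycine and a carbon unit on tetrahydrofolate, which the MTHFD enzymes oxidise or reduce for purine, thymidylate and methionine synthesis. In the cerebellum PHGDH protein is known mainly from Bergmann glia and other astrocytes, which pass serine to neurons, and Purkinje cells hold little of it. In cultured mammalian cells the transcription factor ATF4 activates many of these genes.

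Of the 10 genes, 3 were called higher in the libraries labelled *nm3888*-/- (*Shmt2*, *Psph* and *Phgdh*) and none lower, by edgeR's quasi-likelihood test, which held genotype and library series, at a Benjamini-Hochberg adjusted p under 0.05 over all genes tested. Over all genes, 2.58% were called higher and 5.95% lower. At an unadjusted p under 0.05 the same test gave 4 members higher and 1 lower, where 10.4% of all genes were higher and 13.2% lower. DESeq2 called 3 members higher and 1 lower, where it called 4.79% of the genes it tested higher and 7.45% lower. The median log2 fold change over the members was 0.28, with 7 of 10 above 0, against 0.03 over all genes tested. The members were chosen with earlier results of these data known, so these counts and medians describe the list and do not test it. Leaving out wild type 1, 2 or 3 or mutant 1 or 2 left 1 member called higher. Leaving out mutant 4 left 2, and leaving out mutant 3 left 3. Over all genes, 455 were called higher with all libraries and 258, 189 and 173 without wild type 1, 2 and 3. Without mutants 1 to 4 in turn the number was 375, 280, 434 and 360.

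**Figure D1:**
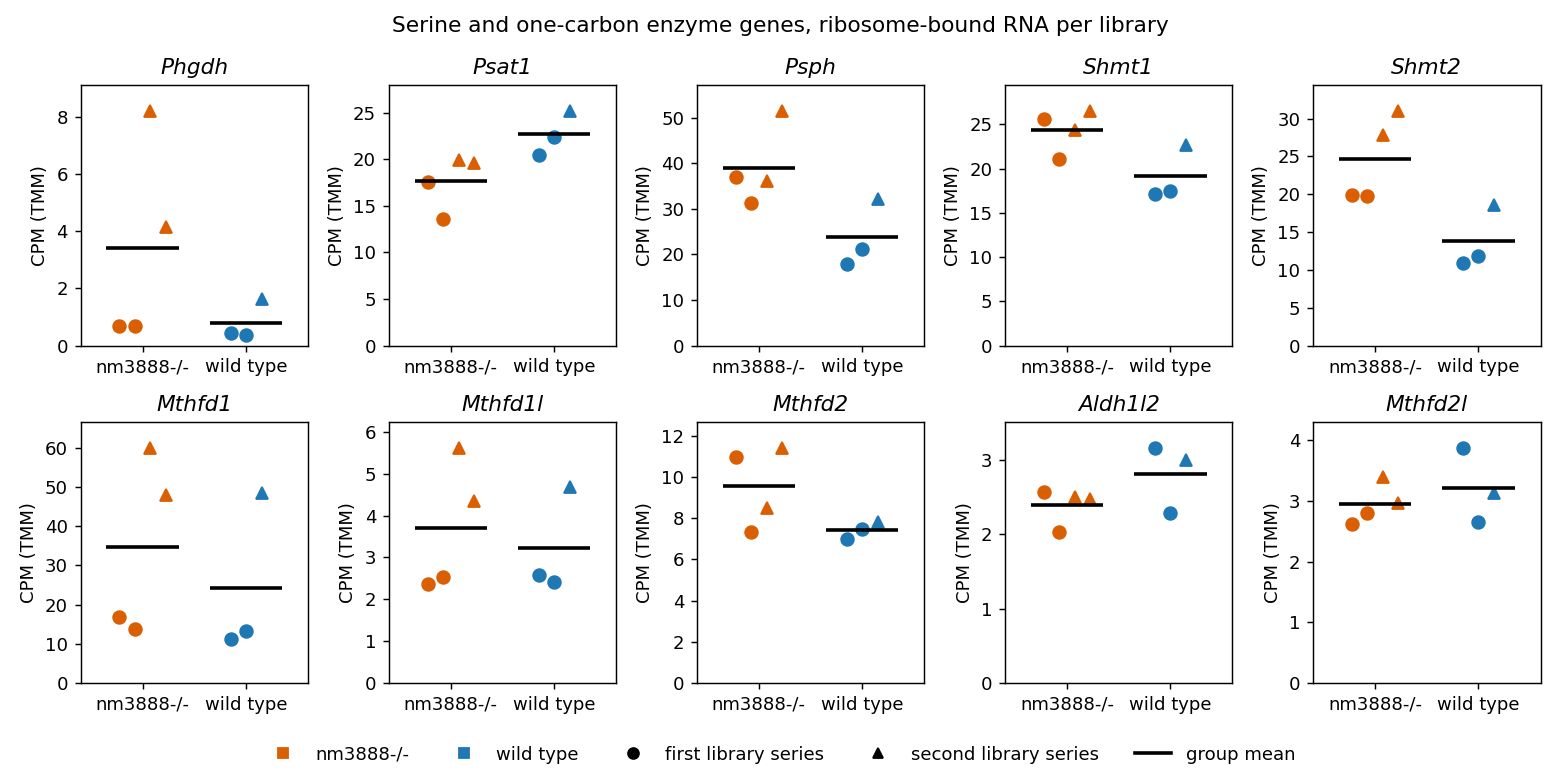
CPM (vertical axis, from 0) of each of the 10 genes in every library, with nm3888-/- on the left and wild type on the right of each panel. Circles are first-series and triangles second-series libraries, and the bar is the group mean. All 4 mutant libraries lie above the 3 wild type libraries for Shmt2 and below them for Psat1, and Phgdh and Mthfd1 split by library series in both genotypes.

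*Shmt2*, the mitochondrial serine hydroxymethyltransferase, was called higher in mutants, and no single library decided that call. The gene (ENSMUSG00000025403.5) lies on chromosome 10 of mm10 from 127517123 to 127522444 on the minus strand, and its longest coding transcript has 12 exons. Its level was 19.9, 19.8, 27.8 and 31.0 CPM in mutants 1 to 4, against 10.9, 11.8 and 18.6 CPM in wild type 1 to 3. Every mutant library was above every wild type library, a pattern that 5.16% of all genes tested showed. The means were 24.6 ± 5.67 CPM in mutants (SD, n = 4) and 13.8 ± 4.23 CPM in wild type (SD, n = 3). *Shmt2* rose, with a log2 fold change of 0.74 (SE 0.10, 95% confidence interval 0.51 to 0.98, adjusted p = 0.0031 by edgeR). Each first-series mutant was higher than the first-series wild type mean, by 0.81 and 0.80 on the log2 scale, and each second-series mutant was higher than its wild type library, by 0.58 and 0.73.

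The *Shmt2* call was kept with any 1 library left out, with adjusted p from 0.00419 to 0.0213 by edgeR. It was lost without the series term (log2 fold change 0.84, adjusted p = 0.27), with sex in its place (0.53, adjusted p = 0.642) and in the second series alone (0.66, adjusted p = 0.119).

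*Shmt1*, which encodes the cytosolic partner, had 25.6, 21.1, 24.3 and 26.5 CPM in mutants 1 to 4, against 17.1, 17.5 and 22.7 CPM in wild type 1 to 3. Mutant 2 lay below wild type 3, so that the groups overlapped. The log2 fold change was 0.31 (SE 0.12, 95% confidence interval 0.05 to 0.58), and the adjusted p of 0.139 by edgeR did not pass.

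*Psph*, whose product removes the phosphate from phosphoserine in the last step of serine synthesis, was also called higher. The gene (ENSMUSG00000029446.14) lies on chromosome 5 from 129765558 to 129787449 on the minus strand, with 8 exons. It had 37.0, 31.4, 36.1 and 51.5 CPM in mutants 1 to 4, against 17.9, 21.3 and 32.1 CPM in wild type 1 to 3. Only mutant 2 was below the highest wild type library, wild type 3. *Psph* rose, with a log2 fold change of 0.65 (SE 0.16, 95% confidence interval 0.30 to 1.01, adjusted p = 0.037 by edgeR).

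Within the first series alone the log2 fold change of *Psph* was 0.80 (adjusted p = 0.037 by edgeR, where 1.12% of genes were called higher), and within the second it was 0.45 (adjusted p = 0.362). The 2 second-series mutants stood apart from each other, 0.17 and 0.68 above wild type 3 on the log2 scale. The call held without mutant 3 (adjusted p = 0.00916) and was lost when any other library was left out, with log2 fold changes from 0.56 to 0.80 and adjusted p from 0.0759 to 0.116. Without the series term *Psph* had a log2 fold change of 0.71 (adjusted p = 0.337), and with sex in its place 0.52 (adjusted p = 0.707). When the block was the replicate number and not the series, the log2 fold change of *Psph* was 0.58 (adjusted p = 0.129 by edgeR). *Shmt2* was then the only member called (adjusted p = 0.0268, where 1.37% of genes were called higher). Mutant 4 was alone in its block there and added nothing to the genotype difference.

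*Psat1*, which encodes the aminotransferase between the steps of *Phgdh* and *Psph*, lay in the opposite direction. The gene (ENSMUSG00000024640.9) lies on chromosome 19 from 15904678 to 15947337 on the minus strand, with 9 exons. It had 17.6, 13.6, 19.9 and 19.6 CPM in mutants 1 to 4, against 20.5, 22.4 and 25.2 CPM in wild type 1 to 3. Every mutant library was below every wild type library, as for 8.92% of all genes tested. The log2 fold change was -0.42 (SE 0.12, 95% confidence interval -0.69 to -0.15), with an adjusted p of 0.0657 by edgeR that did not pass. DESeq2 gave -0.40 (adjusted p = 0.0492) and called 7.45% of the genes it tested lower. The ratio of means was -0.46 on the log2 scale in the first series and -0.35 in the second.

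**Figure D2:**
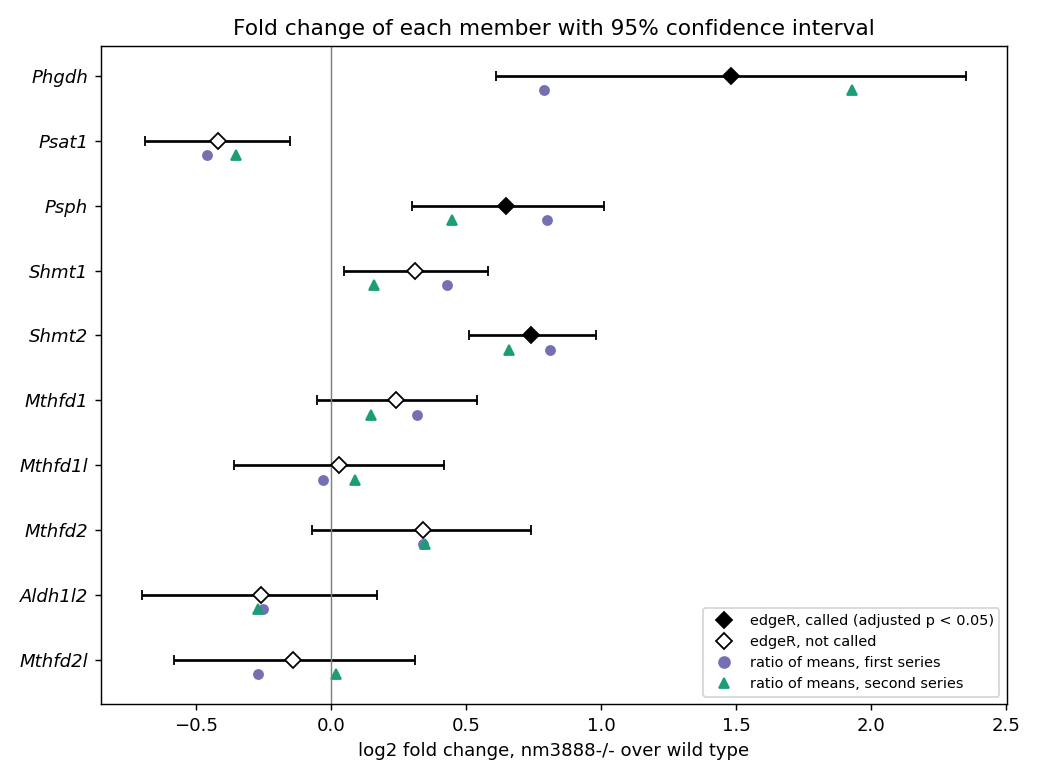
Log2 fold change of nm3888-/- over wild type (horizontal axis) for the 10 genes. Diamonds with bars give the edgeR estimate and its 95% confidence interval, filled where called, with circles and triangles for the ratio of mean CPM in the first and second library series. Phgdh has the widest interval, 0.61 to 2.35, and Psat1 is the only member whose interval lies below 0.

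*Phgdh*, which encodes the dehydrogenase that commits carbon to serine, had the largest fold change of the members and the fewest counts in the first series. The gene (ENSMUSG00000053398.11) lies on chromosome 3 from 98313170 to 98339990 on the minus strand, with 12 exons. Its raw counts were 13, 23, 488 and 187 in mutants 1 to 4, against 11, 9 and 166 in wild type 1 to 3. In CPM these were 0.681, 0.685, 8.22 and 4.14 in mutants, against 0.434, 0.356 and 1.62 in wild type. The mutants were higher than wild type within each series, but mutants 1 and 2 were below wild type 3. The fitted rise of *Phgdh* was 1.48 in log2 units (SE 0.38, 95% confidence interval 0.61 to 2.35, adjusted p = 0.0489 by edgeR).

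The first series alone gave a log2 fold change of 0.78 for *Phgdh* (adjusted p = 0.364 by edgeR) and the second 1.94 (adjusted p = 0.0034, where 3.27% of genes were called higher). The difference between the series was not tested. The call held without mutant 3 (1.10, adjusted p = 0.0425) or mutant 4 (1.67, adjusted p = 0.0372). It was lost without mutant 1 (1.56, adjusted p = 0.0752), mutant 2 (1.59, 0.088), wild type 1 (1.67, 0.0639), wild type 2 (1.53, 0.108) or wild type 3 (0.78, 0.522). With the replicate block the adjusted p was 0.0594, without the series term it was 0.546, with all libraries thinned to the total of the shallowest it was 0.0732, and with sex in place of the series the log2 fold change was -0.27 (adjusted p = 0.95 by edgeR).

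The annotation holds 21 pseudogenes that align to *Phgdh* at 80% identity or more over 50% or more of their length, on which reads of the gene may be counted. The closest by identity is *Gm7901* on chromosome 8, whose aligned sequence matches the coding sequence of *Phgdh* at 1577 of 1597 positions (98.7%). Of the 1498 windows of 100 bases in that alignment, 651 (43.5%) are identical. The stretch with the most differences within 120 bases is shown for both, coding bases 1327 to 1446 of *Phgdh* counted from the first base of the start codon (GENCODE M21 transcripts), with the 6 bases that differ in capitals.
Phgdh: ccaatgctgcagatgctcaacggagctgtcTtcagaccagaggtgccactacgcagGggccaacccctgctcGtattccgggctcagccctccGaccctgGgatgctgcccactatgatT
Gm7901: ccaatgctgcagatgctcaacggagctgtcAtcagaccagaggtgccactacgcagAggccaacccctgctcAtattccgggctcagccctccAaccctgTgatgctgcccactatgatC

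*Gm7901* itself had 46, 79, 6 and 2 counts in mutants 1 to 4, against 36, 38 and 2 counts in wild type 1 to 3, more than *Phgdh* in each first-series library and far fewer in each second-series library. Summed over the 21 pseudogenes, the copies took 84.7 and 82.4% of the counts on gene and copies together in mutants 1 and 2, and 82.3 and 85.9% in wild type 1 and 2. In the second series they took 6.15 and 9.66% in mutants 3 and 4, and 17.8% in wild type 3. The gene alone carried the smaller part of these counts in the first series and most of them in the second.

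With the copies added, *Phgdh* had 4.45, 3.90, 8.75 and 4.58 CPM in mutants 1 to 4, against 2.45, 2.53 and 1.97 CPM in wild type 1 to 3. On this sum every mutant library was above every wild type library, and the wild type libraries of both series lay close together. On counts without copies added, 5.16% of all genes tested showed every mutant above every wild type library. That share was not computed with copies added. The means were 5.42 ± 2.24 CPM in mutants (SD, n = 4) and 2.32 ± 0.303 CPM in wild type (SD, n = 3). The log2 fold change was 1.18 (SE 0.31, 95% confidence interval 0.47 to 1.88), and the adjusted p of 0.0515 by edgeR did not pass. Headers of the deposited counts name a Bowtie2 folder for the first series and a STAR folder for the second, and the part of the aligner in this split was not tested.

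*Psat1*, *Shmt2* and *Mthfd2l* each have 1 such copy in the annotation, and the other 6 members have none under these limits. The *Psat1* copy *Gm12611* took 23.6 and 22.5% of the summed counts in mutants 1 and 2 and 17.5 and 21.5% in wild type 1 and 2, and at most 0.0387% in any second-series library. The *Shmt2* copy *Gm15544* took 16.5 and 14.3% in mutants 1 and 2 and 20.2 and 19.9% in wild type 1 and 2, and at most 0.143% in the second series. With its copy added, *Shmt2* had 23.8, 23.1, 27.8 and 31.0 CPM in mutants 1 to 4, against 13.7, 14.7 and 18.6 CPM in wild type 1 to 3. Its log2 fold change was then 0.70 (SE 0.10, adjusted p = 0.00354 by edgeR), and that of *Psat1* was -0.38 (SE 0.12, adjusted p = 0.0945).

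**Figure D3:**
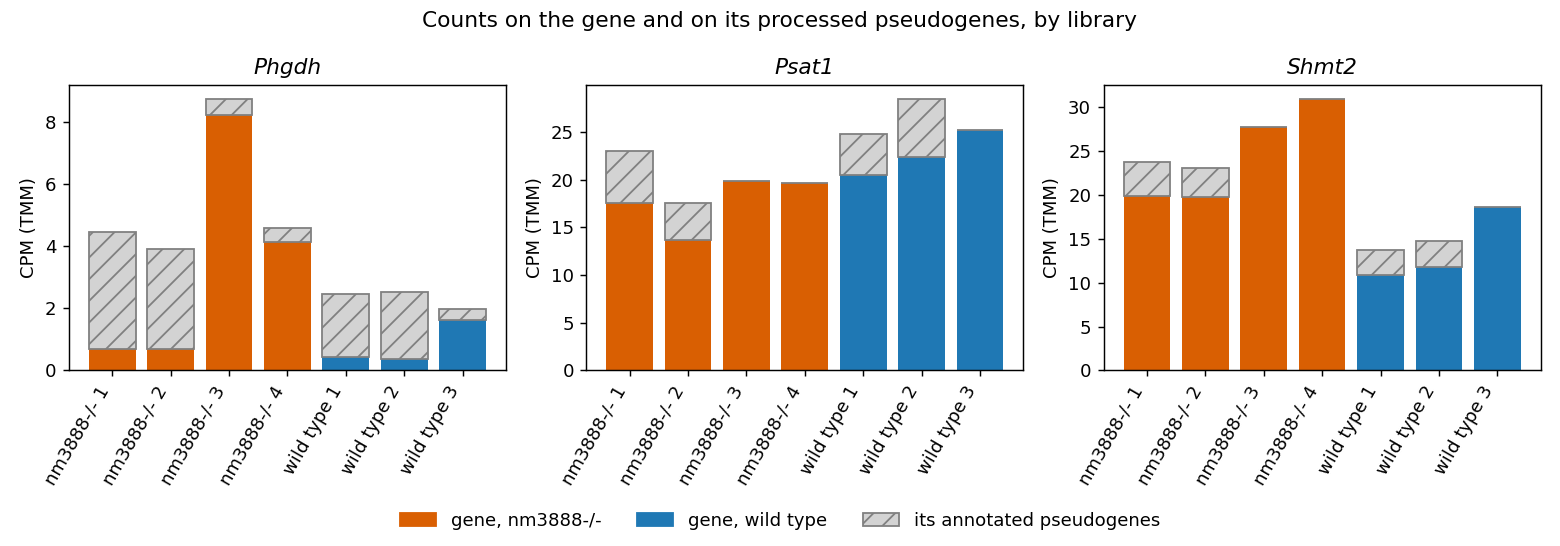
Stacked bars from 0 give CPM on the gene (orange for nm3888-/-, blue for wild type) and on its annotated pseudogenes (hatched grey) in each library for Phgdh, Psat1 and Shmt2. The pseudogenes take 82.3 to 85.9% of the Phgdh sum in the 4 first-series libraries (nm3888-/- 1 and 2, wild type 1 and 2) and 6.15 to 17.8% in the 3 others.

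None of the 5 other folate enzyme genes was called by edgeR with all libraries or in any of 17 alternative settings. *Mthfd1*, which encodes the trifunctional cytosolic enzyme (chromosome 12, 76255298 to 76319803, 28 exons), had 16.7, 13.8, 59.9 and 48.0 CPM in mutants 1 to 4, against 11.2, 13.3 and 48.5 CPM in wild type 1 to 3. Libraries of the second series were higher than those of the first in both genotypes, by 3.54 times in mutants and 3.96 times in wild type, and the genotypes overlapped. No pseudogene of *Mthfd1* met the limits above. Between genotypes the log2 fold change was 0.24 (SE 0.13, 95% confidence interval -0.05 to 0.54, adjusted p = 0.295 by edgeR).

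*Mthfd2*, which encodes a mitochondrial methylene-tetrahydrofolate dehydrogenase (chromosome 6, 83305691 to 83325908), had 11, 7.33, 8.50 and 11.4 CPM in mutants 1 to 4, against 6.99, 7.47 and 7.82 CPM in wild type 1 to 3. Mutant 2 alone lay within the wild type range. For *Mthfd2* the log2 fold change was 0.34 (SE 0.18, 95% confidence interval -0.07 to 0.74, adjusted p = 0.294 by edgeR). Its relative *Mthfd2l* (chromosome 5, 90931117 to 91021368) had 2.62, 2.80, 3.40 and 2.96 CPM in mutants, against 3.87, 2.65 and 3.13 CPM in wild type. Here the groups overlapped throughout, with a log2 fold change of -0.14 (95% confidence interval -0.58 to 0.31, adjusted p = 0.719 by edgeR).

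*Mthfd1l* encodes the mitochondrial formyl-tetrahydrofolate synthetase (chromosome 10, 3973118 to 4167081). It had 2.36, 2.53, 5.61 and 4.36 CPM in mutants 1 to 4, against 2.57, 2.41 and 4.69 CPM in wild type 1 to 3. The split again followed the library series, 2.04 times higher in the second series among mutants and 1.88 times in wild type. Between genotypes it was small, with a log2 fold change of 0.03 (95% confidence interval -0.36 to 0.42, adjusted p = 0.943 by edgeR).

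*Aldh1l2*, which encodes the mitochondrial formyl-tetrahydrofolate dehydrogenase (chromosome 10, 83487450 to 83534140), had 2.57, 2.03, 2.51 and 2.48 CPM in mutants 1 to 4, against 3.16, 2.29 and 3.00 CPM in wild type 1 to 3. Mutants 1, 3 and 4 lay close together between wild type 2 and wild type 3, and mutant 2 was below all libraries. For this gene the log2 fold change was -0.26 (95% confidence interval -0.70 to 0.17, adjusted p = 0.454 by edgeR).

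To compare levels between genes, CPM were divided by the exonic length in kilobases. This length covers all annotated exons of a gene, 4329 bases for *Psph* and 6645 for *Mthfd2l*. Their longest coding transcripts have 1733 and 2159 bases, and an order by transcript length was not made. In mutants *Psph* had the highest mean of the 10 at 9.01 ± 2.01 CPM per kilobase (SD, n = 4), and *Aldh1l2* the lowest at 0.319 ± 0.0331. The range of *Psph*, 7.25 to 11.9, overlapped that of *Shmt2*, and *Mthfd1* (7.79 ± 5.16) ranged from 3.11 to 13.5. In wild type *Psph* was again the highest at 5.50 ± 1.72 CPM per kilobase (SD, n = 3), followed by *Mthfd1* (5.47), *Psat1* (5.33), *Shmt1* (4.93) and *Shmt2* (4.43), whose ranges overlapped from each to the next. *Mthfd2* (2.13) was below all of these, and *Mthfd1l* (0.727), *Mthfd2l* (0.484), *Aldh1l2* (0.376) and *Phgdh* (0.323) came last, again overlapping from each to the next. In mutants *Shmt2* (7.92) came second and *Phgdh* (1.38) seventh, between *Mthfd2* (2.74) and *Mthfd1l* (0.837), with overlapping ranges on both sides. This order pools the series, of which the second gave 2 of 4 mutant and 1 of 3 wild type libraries. Per library, *Phgdh* ranged from 0.274 to 3.30 CPM per kilobase in mutants and from 0.143 to 0.651 in wild type, with the low end in the first series and the high end in the second. With its copies added and the same exonic length, *Phgdh* averaged 2.18 CPM per kilobase in mutants and 0.931 in wild type, above *Mthfd1l* in both genotypes, so that its last place in wild type depends on where reads of the copies are counted.

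The genes whose pattern over the 7 libraries was most like each called member were found by Pearson correlation of log2 CPM after each library series was centred on its own mean, among 12309 genes. For *Shmt2* these were *Pdcd2*, *Egr4* and *Ybx1* (r from 0.998 to 0.999), for *Psph* they were *Puf60*, *Psen2* and *Cwc15* (0.994 to 0.995), and for *Phgdh* they were *Cplx2*, *Phyhipl* and *Xkr6* (0.990 to 0.991). Values this high are the extremes of many genes over few libraries that share series and depth, and they are given as a description.

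Since *Shmt2*, *Psph* and *Phgdh* were higher and *Psat1* was not, the 250 bases before the RefSeq start of each are shown (GRCm38.p6), with the CCAAT box, written CCAAT on one strand and ATTGG on the other, in capitals. Promoters were listed for 9 of the 10 genes (10 promoters, with 2 for *Psat1*, of which the one with CCAAT boxes is shown). CCAAT stood in 6 of these 10 and in 33.8% of 32851 promoters of the same length, both strands searched.
Phgdh, chr3:98339970-98340219, minus strand: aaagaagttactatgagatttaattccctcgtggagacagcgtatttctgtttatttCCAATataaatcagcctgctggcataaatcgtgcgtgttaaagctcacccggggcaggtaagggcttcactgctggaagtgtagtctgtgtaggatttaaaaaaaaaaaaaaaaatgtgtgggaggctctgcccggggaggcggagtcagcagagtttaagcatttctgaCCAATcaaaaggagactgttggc
Psph, chr5:129787254-129787503, minus strand: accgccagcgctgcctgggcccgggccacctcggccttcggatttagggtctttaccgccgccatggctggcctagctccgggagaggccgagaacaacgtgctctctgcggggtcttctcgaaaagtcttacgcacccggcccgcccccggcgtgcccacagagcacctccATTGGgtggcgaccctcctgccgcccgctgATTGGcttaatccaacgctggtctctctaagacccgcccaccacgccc
Shmt2, chr10:127522445-127522694, minus strand: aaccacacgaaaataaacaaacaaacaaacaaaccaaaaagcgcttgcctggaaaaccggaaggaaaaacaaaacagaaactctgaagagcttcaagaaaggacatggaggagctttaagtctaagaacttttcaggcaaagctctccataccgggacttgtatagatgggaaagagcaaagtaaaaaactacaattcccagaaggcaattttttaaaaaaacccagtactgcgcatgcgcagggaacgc
Psat1, chr19:15925060-15925309, minus strand: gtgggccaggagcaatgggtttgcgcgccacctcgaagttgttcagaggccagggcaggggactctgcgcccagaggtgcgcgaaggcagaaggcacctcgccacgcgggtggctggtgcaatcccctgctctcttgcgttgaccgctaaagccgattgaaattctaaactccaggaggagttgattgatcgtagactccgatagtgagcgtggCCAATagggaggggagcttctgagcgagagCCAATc
The letters TGATGNAA, the response element shared by ATF4 and C/EBP proteins, stood in 0 of the 10 and in 3.45% of all promoters. The E-box CAGATG stood in 0 of the 10 and in 14.4% of all. These are matches of letters in one window and say nothing of binding.

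Further genes of the pathway were read from the same test. Of 54 genes in 6 lists for serine supply and use, folate uptake, folate interconversion, glycine cleavage, purine synthesis and the methionine cycle, 48 were tested, with a median log2 fold change of 0.03, equal to that of all genes. By edgeR 2 were called higher and 0 lower, where 8 were higher and 5 lower at an unadjusted p under 0.05, and DESeq2 called 2 higher and 1 lower. These counts are read against the shares of all genes given above, and 2 of 48 higher is close to the 2.58% of all genes. *Slc1a4*, a neutral amino acid transporter that carries serine, had 8.74, 6.70, 10.2 and 8.96 CPM in mutants 1 to 4, against 5.80, 3.95 and 5.16 CPM in wild type 1 to 3. It rose, with all mutants above all wild type, as for 5.16% of all genes tested (log2 fold change 0.76, SE 0.18, adjusted p = 0.0388 by edgeR). *Mtrr*, the reductase that keeps methionine synthase active, had 25.9, 28.0, 31.5 and 26.4 CPM in mutants, against 18.2, 16.5 and 20.7 CPM in wild type. It also rose (log2 fold change 0.57, SE 0.11, adjusted p = 0.0145 by edgeR).

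These 2 calls fell to 0 without mutant 2, wild type 2 or wild type 3, and to 1 without mutant 1, mutant 4 or wild type 1. None of the genes of folate uptake (7 tested), folate interconversion (5), glycine cleavage (5) and purine synthesis (6) was called by edgeR or DESeq2. At an unadjusted p under 0.05, 1 gene was higher in each of these 4 lists, and 1 of folate interconversion was lower.

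Targets of ATF4 other than the members were read beside them. The list held 28 genes, *Atf4* itself among them, and *Trib3*, *Fgf21* and *Gdf15* were not tested. Of 25 tested, 3 were called higher and none lower by edgeR, where 2.58% of all genes were called higher and 5.95% lower. At an unadjusted p under 0.05, 8 were higher and 1 lower, where 10.4% of all genes were higher and 13.2% lower. DESeq2 called 3 higher and 0 lower, and the median log2 fold change by edgeR was 0.16. *Atf3*, a stress-induced transcription factor, had 2.46, 1.07, 2.56 and 1.68 CPM in mutants 1 to 4, against 0.395, 0.119 and 0.458 CPM in wild type 1 to 3. Its log2 fold change was 2.43 (SE 0.43, adjusted p = 0.00983 by edgeR). *Atf5*, a relative of ATF4, had 77.1, 51.6, 41.5 and 62.4 CPM in mutants, against 25.8, 26.9 and 30.9 CPM in wild type (log2 fold change 1.06, SE 0.20, adjusted p = 0.0134 by edgeR). The last of the 3 was *Nupr1* at 0.79 (adjusted p = 0.0444 by edgeR), named after its value was seen.

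*Asns*, the asparagine synthetase, is a widely used target of ATF4 and was chosen after its values were seen. It had 47.6, 46.7, 82.4 and 88.6 CPM in mutants 1 to 4, against 45.2, 48.0 and 95.3 CPM in wild type 1 to 3 (log2 fold change -0.05, SE 0.09, adjusted p = 0.753 by edgeR). *Atf4* itself, likewise chosen afterwards, had 216, 163, 142 and 178 CPM in mutants, against 135, 135 and 132 CPM in wild type (log2 fold change 0.40, SE 0.13, adjusted p = 0.0975 by edgeR). The count of called targets was 1 when wild type 1, 2 or 3 was left out.

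Glial markers were measured in the same libraries, because the serine enzymes are mainly glial in the cerebellum. The 24 markers of Bergmann glia and astrocytes summed to 1273, 1010, 1874 and 1623 CPM in mutants 1 to 4, against 1026, 1052 and 1231 CPM in wild type 1 to 3. Their median log2 fold change was 0.58, with 22 of 24 above 0, and the median of the ratios was 0.23 in the first series and 1.06 in the second. No marker was at 0 in all libraries. By edgeR 3 were called higher and 1 lower, where 2.58% of all genes were called higher and 5.95% lower. DESeq2 called 6 higher and 1 lower, where it called 4.79% of the genes it tested higher and 7.45% lower. *Gfap*, the astrocytic filament gene, had 12.5, 10.6, 32.2 and 29.5 CPM in mutants, against 7.62, 5.97 and 11.6 CPM in wild type (log2 fold change 1.04, adjusted p = 0.00788 by edgeR). *Timp4* rose by 0.95 on the log2 scale (adjusted p = 0.0164) and *Hopx* fell by 0.82 (adjusted p = 0.0207 by edgeR). Without wild type 3 none of the 24 was called, and without wild type 2 the count was 2.

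Against the wild type mean of the same series, the median log2 ratio over the 24 glial markers was 0.25, 0.19, 1.21 and 0.72 in mutants 1 to 4, with 19, 15, 22 and 21 markers above 0. The summed level, which weights abundant markers more, gave 0.29, -0.04, 0.61 and 0.40. On the same scale *Phgdh* was at 0.78, 0.79, 2.34 and 1.35, *Psph* at 0.92, 0.68, 0.17 and 0.68, and *Shmt2* at 0.81, 0.80, 0.58 and 0.73. The glial markers and *Phgdh* were higher in the second-series mutants than in the first-series mutants, and the values of *Psph* and *Shmt2* were not. This rise was not particular to glial markers. The medians in mutants 1 to 4 were 0.22, 0.29, 1.34 and 0.61 for granule cell markers and 0.45, 0.13, 0.69 and 0.93 for oligodendrocyte markers. For endothelial and pericyte markers they were -0.35, -0.06, 0.49 and 1.04. Medians of Purkinje, interneuron and microglial markers overlapped between the series. Differences between the series were not tested. The part of glial RNA in these differences was not tested beyond these values.

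Median fold changes above 0 were also found for markers of other cells. The median log2 fold change was 0.54 for 12 granule cell markers (1 called higher, *Calb2*), 0.54 for 14 oligodendrocyte markers (2 called higher, *Cnp* and *Cldn11*), 0.39 for 7 interneuron markers, 0.63 for 8 microglial markers tested and 0.21 for 11 endothelial and pericyte markers. In the last 3 lists edgeR called none, DESeq2 called 0, 1 and 1 higher, and 3, 4 and 2 were higher at an unadjusted p under 0.05. The shares of all genes given above stand beside these counts. Microglial markers summed to 8.96 to 22.8 CPM in mutants and 7.91 to 17.5 CPM in wild type, and granule cell markers to 652 to 1214 CPM in mutants and 482 to 594 CPM in wild type. Interneuron markers summed to 2162 to 3257 CPM in mutants and 2322 to 3533 CPM in wild type. Most of that sum was *Pvalb*, at 2063 to 3121 CPM in mutants and 2219 to 3337 CPM in wild type. Of the Purkinje markers 1 was called, *Slc32a1*, with a log2 fold change of -1.25 (adjusted p = 0.00014 by edgeR). Over the 73 tested markers other than those of Bergmann glia and astrocytes, the count of 4 calls was 7 without wild type 1, 2 without wild type 2 or mutant 1, and 1 without wild type 3. The part of these cells in the values of the members was not tested.

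**Figure D4:**
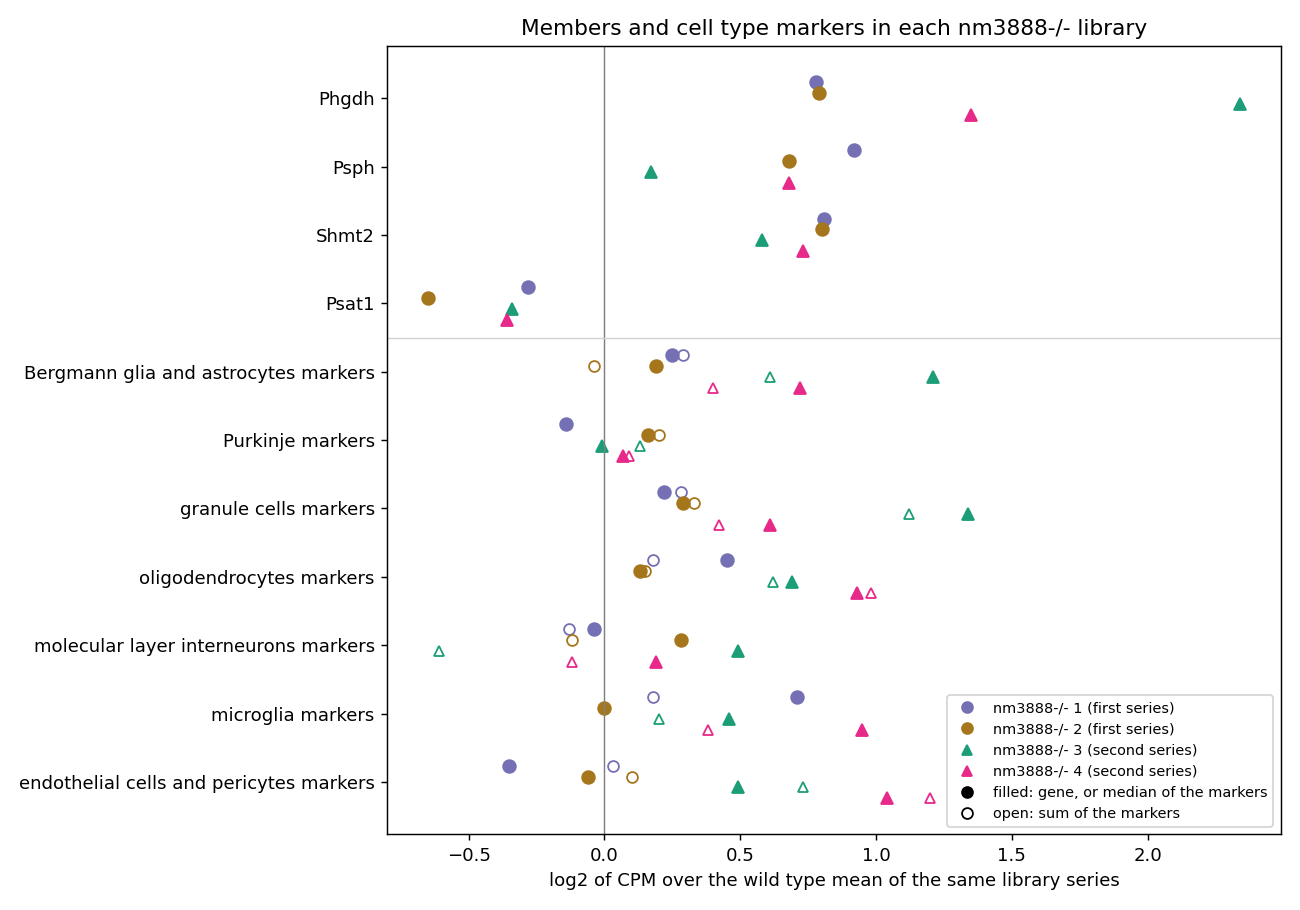
Log2 of CPM in each nm3888-/- library over the wild type mean of the same library series (horizontal axis) for Phgdh, Psph, Shmt2, Psat1 and the markers of 7 cell types, with circles for the 2 first-series and triangles for the 2 second-series mutants. Filled symbols are the gene or the median over the markers and open symbols the summed markers. The interneuron sum is mostly Pvalb. Shmt2 lies between 0.58 and 0.81 in all 4 mutants, and the median of the Bergmann glia and astrocyte markers is 0.25 and 0.19 in the first-series and 1.21 and 0.72 in the second-series mutants.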

How the data were processed

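RNA bound to HA-tagged ribosomes of 7 cerebella was sequenced after polyA selection with a stranded kit. Per the methods, the authors removed duplicates and trimmed reads with fastp and aligned them to mm10 with Bowtie2. The deposited values are raw counts per gene, made with featureCounts (2.0.1 per the file headers; paired, both ends mapped, reverse-stranded) on GENCODE M25, with no normalization. Pseudogenes and exon numbers were taken from GENCODE M21 of the same assembly.

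Libraries were grouped by the genotype in the labels. Counts of all 17621 genes that passed filterByExpr were tested with edgeR 4.0.16 (R 4.3.3, limma 3.58.1) after TMM scaling, with genotype and library series as terms, and DESeq2 1.42.0 was an alternative, each with an adjusted p threshold of 0.05. CPM are counts over the library total times its TMM factor. Pseudogene transcripts with 80% identity or more to a member over 50% or more of their length were found by blastn. The test was also run on simulated counts, whose results are not given here, and no call here rests on them. Totals of 18023017 to 107937386 counts set the precision, and p-values rest on 1 library per mouse. The methods state 3 libraries per genotype where the labels hold 4 mutants.

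Deviations from the group means correlated within same-numbered pairs (r = 0.914, 0.946 and 0.96), and as well between other pairs of the same series (0.926, 0.929 and 0.956). Within the first series the correlation was 0.0352. These r values thus do not show that the numbers pair the mice, and nothing in the labels says what a number marks. A fit with the number as a block was made as an alternative only. Mutant 4 has no wild type library of its number, so it adds nothing to the genotype difference in that fit.

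The members and gene lists were chosen with earlier results of these data known. Named genes are all members, *Rreb1*, up to 3 called genes per direction of each pathway list, up to 2 of the ATF4 and marker lists by adjusted p, and the 3 genes most like each member in pattern. *Nupr1*, *Asns*, *Atf4* and *Pvalb* were added outside this rule, after their values were seen. The genes most like *Psat1* and the members not called, and other single markers of lists with no call, are left out.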

Additional observations from a re-analysis of the deposited data

Results flagged for a closer look

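*Aldh1l2* had 1 library far from the others of its group. In mutant 2 it had 2.03 CPM, where mutants 1, 3 and 4 had 2.57, 2.51 and 2.48 CPM. The gap to the nearest library was 0.835 of the range of the group, above Dixon's 95% critical value for 4 libraries. Chance alone marks about 1 in 20 groups in this way. Without mutant 2 the log2 fold change of *Aldh1l2* was -0.19 (adjusted p = 0.663 by edgeR), against -0.26 with it.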

How the results depend on the processing

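Of the members, *Shmt2* was called in 14 of 17 alternatives, *Psph* in 7, *Phgdh* in 6 and *Psat1* in 1 (DESeq2, lower). Members called higher numbered 0 without a batch term and with sex in place of the series, 1 with the replicate block in place of the series and 1 in the second series alone, and 1 to 3 with 1 library left out. Members called lower numbered 1 with DESeq2 and 0 with any 1 library left out.

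All genes called higher numbered 731 with no filter on low counts, 815 with DESeq2, 58 without a batch term, 17 with sex and 241 with the replicate block. They numbered 191 in the first series and 567 in the second, with 173 to 434 over the libraries left out. Genes called lower numbered 251 without a batch term, 85 with sex, 571 with the replicate block, 488 in the first series and 493 in the second, with 426 to 991 over the libraries left out.

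Of the further pathway genes, 4 were called with no filter and 0 without a batch term, with sex or in the first series, with 0 to 2 over the libraries left out. ATF4 targets called numbered 0 without a batch term or with sex, 1 with the replicate block and 1 in either series, with 1 to 3 over the libraries left out. Of the 24 markers of Bergmann glia and astrocytes, 8 were called with no filter and 7 with DESeq2. The number was 0 without a batch term, with sex or in the first series, with 0 to 5 over the libraries left out. In the second series alone 19 of the 24 were called in either direction, where 567 of 17357 genes were called higher and 493 lower. Of the 76 other markers listed, 9 were called with no filter, 9 with DESeq2 and 1 without a batch term or with sex. In the first series 2 were called and in the second 14, with 1 to 7 over the libraries left out.

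With sex in place of the series the log2 fold change turned for *Phgdh* (-0.27), *Mthfd1* (-0.68) and *Mthfd1l* (-0.40), none of them called there. Both males are mutants, so this fit set the first-series mutants against wild type libraries of both series and left the series difference in. In wild type the second series was 4.1, 3.96 and 1.88 times the first for these genes. The fit is therefore no check of sex. That of *Mthfd1l* was also below 0 in the first series alone (-0.02), without wild type 3 (-0.02) and without mutant 3 (-0.05), over a range of -0.05 to 0.09 with 1 library left out. That of *Mthfd2l* was above 0 in the second series alone (0.03) and without wild type 1 (0.04), over a range of -0.26 to 0.04. The cause was not tested. Without wild type 3 the second series holds no wild type library, and fold changes then rest on the first series. *Phgdh* in the first series rests on 9 to 23 counts.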
